A study of Bos taurus with 13 samples.

Results

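The change in RNA over time in culture without any heat was measured by comparing the controls of a heat experiment on bovine mesenchymal stem cells. The comparison used 5 of the 13 libraries of the study, chosen by their labels alone. Of these, 3 (ShortNT, here the 6 h control) came from cells kept for 6 h at 37 °C, and 2 (LongNT, here the 3-day control) from cells kept for 3 days at 37 °C. Both periods began a day after seeding. All 5 libraries were from untreated primary cells from umbilical cord at early passages, grown in low-glucose medium with 10% serum. The other libraries were from cells at 40.5 °C for 6 h (ShortHS, n = 3) or 3 days (LongHS, n = 3), and from cells heated for 6 h and then kept for 66 h at 37 °C (ShortHS_Recovery, n = 2). Polyadenylated RNA was sequenced, and the labels do not say whether replicates were separate animals, cultures or days. The p-values below therefore measure the spread between these libraries, which may be technical.

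Mesenchymal stem cells are adherent stromal cells that can form bone, cartilage and fat cells. As background, cells newly seeded on plastic first attach and spread, then divide, secrete extracellular matrix and come into closer contact with their neighbours. A control harvested hours after the start of an experiment and a control harvested days later thus need not have the same transcriptome, and each duration of heat in the study had its own control. The deposited table gives genes as Ensembl identifiers, and no table used here pairs these with names. Genes are therefore described as groups defined by direction, size of change and level, and 4 are given by identifier. For the same reason the labelled cell type was not checked against its markers.

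The values are read counts per gene divided by a size factor for each library, so that 1 read was worth between 0.602 and 1.28 units in the 5 libraries. They are not divided by gene length, so a higher value means more reads from a gene and not necessarily more molecules. The 6 h control libraries were sequenced to 39117065, 28813827 and 20683166 recovered reads (replicates 1 to 3), and those of the 3-day control to 28048240 and 18902973. Of the 16595 genes in the table, each library detected from 15498 to 15925 with 1 read or more. Genes with a value of at least 10 in at least 2 of the 5 libraries were tested, 13229 in all.

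Replicate 3 of the 6 h control stood apart from the other libraries of its group. The median absolute difference over genes, on the log2(value + 1) scale, was 0.088 between replicates 1 and 2 of the 6 h control. It was 0.232 between replicates 1 and 3 and 0.246 between replicates 2 and 3. The 3-day control libraries differed from each other by 0.156. Replicates 1 and 2 of the 6 h control differed from the 3-day control libraries by 0.246 to 0.313, and replicate 3 by 0.340 and 0.377. The distance of replicate 3 from its own group was thus about as large as the smallest distance across time. In a principal component analysis of the 5 libraries, the first component held 55.6% of the variance and had all 6 h libraries on one side and both 3-day libraries on the other. The second held 34.2% and placed replicate 3 of the 6 h control, at 44.5, against replicates 1 and 2, at -25.8 and -27.7. The labels do not say what sets replicate 3 apart, and the results below are given with and without it.

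**Figure D1:**
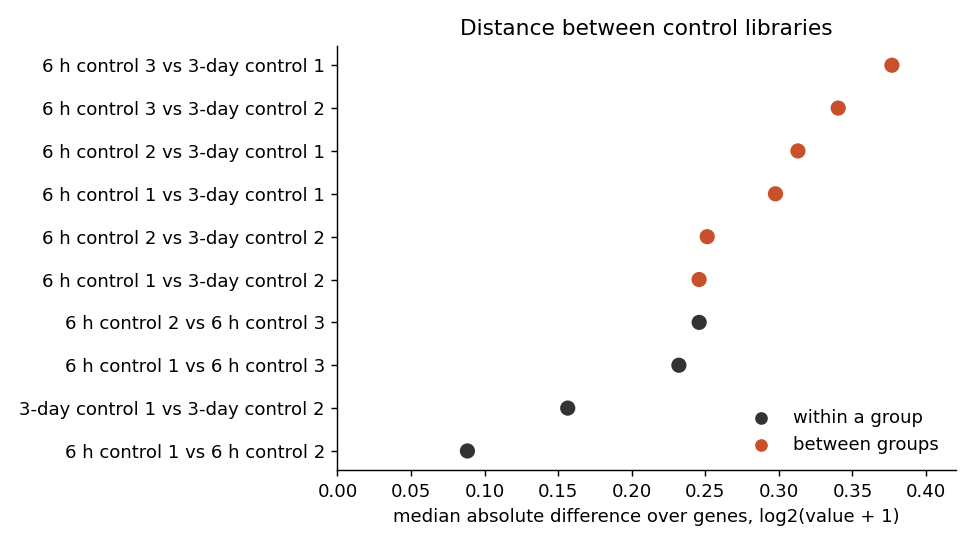
Median absolute difference over the 13229 tested genes between each pair of the 5 control libraries, on the log2(value + 1) scale. Each point is a pair, dark within a group and orange between groups. The pairs of replicate 3 of the 6 h control with replicates 1 and 2 lie at 0.232 and 0.246, beside the closest pair across time.

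Replicate 3 differed from replicates 1 and 2 in the median gene, as given above, and strongly in a smaller set. It was at least 1 log2 unit above the mean of replicates 1 and 2 in 454 genes and at least 1 below it in 591, which together were 7.90% of the tested genes. Replicates 1 and 2 differed from each other by that much in 95 genes (0.718%), and the 3-day control libraries in 208 (1.57%). The median standard deviation of a gene was 0.159 in the 6 h control, 0.062 in its replicates 1 and 2 alone, and 0.111 in the 3-day control. Of the 1045 genes in which replicate 3 lay at least 1 away, 151 passed the threshold of the time comparison described next, and 287 passed it when replicate 3 was left out. Over all tested genes the shares that passed were 26.3% and 24.8%. The 1045 genes were chosen by a deviation that widens their own spread at 6 h, so these counts are a description.

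A large part of the transcriptome measured here changed between 6 h and 3 days at 37 °C. The threshold, an adjusted p of 0.05 from limma, was met by 3480 of the 13229 tested genes (26.3%), with 1598 (12.1%) higher and 1882 (14.2%) lower after 3 days. The spread was estimated over all 13 libraries, with 8 residual degrees of freedom. The median log2 fold change was 0.71 among the genes that rose and -0.49 among those that fell, against -0.01 over all tested genes. In bulk RNA, fewer cells of a type and less RNA per cell cannot be told apart. Duration and harvest split the libraries in the same way, and their parts in the change cannot be told apart either.

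Without replicate 3 of the 6 h control, 3276 genes (24.8%) passed, 1625 higher and 1651 lower. Of these, 2720 were among the 3480, all with the same direction. They made up 78.2% of the genes called with replicate 3 and 83.0% of those called without it. Leaving it out removed 760 genes and added 556. The sign of the fold change turned in 1210 of all tested genes but in 0 of the 3480 called ones. Over all tested genes the fold change moved by a median of 0.078 on the log2 scale.

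The count depended more on which libraries set the spread. When only the 5 control libraries were fitted, with 3 residual degrees of freedom, 1674 genes passed, 818 higher and 856 lower, of which 1617 were among the 3480. When only the 4 control libraries other than replicate 3 were fitted, with 2 residual degrees of freedom, 4734 passed, 2421 higher and 2313 lower. The genes called in all of these fits, with and without replicate 3, numbered 1497, with 731 higher and 766 lower. Without replicate 1 of the 3-day control, which lay farther from the 6 h libraries than replicate 2, 916 genes passed. That fit rests on a lone 3-day library, assumed to vary like the other groups.

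The values of the groups were also compared without a model. In 7108 genes (53.7%) the values of the 2 and the 3 libraries did not overlap, with 3440 higher and 3668 lower after 3 days. Of the 3480 called genes, 3476 had no overlap. In the other 4 it was replicate 3 of the 6 h control alone that reached into the range of the 3-day libraries. For a single value, 2 against 3 libraries allow only 10 arrangements, and the smallest exact permutation p, two-sided, is 0.1. The calls therefore rest on the spread pooled over groups and genes in limma.

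The genes that rose and those that fell differed in the size of their changes. Small changes were more often falls, with 982 genes falling and 478 rising by less than 0.5 log2 units. Changes from 0.5 to 1 included 739 falls and 613 rises. Above 1 the balance was the other way. Of the 668 genes (5.05% of those tested) that passed the threshold and changed by at least 1, 507 were higher after 3 days, which is 75.9%, and 161 were lower. By at least 2 log2 units, 116 genes rose and 8 fell. Without replicate 3 of the 6 h control the same bands held 570 rises and 120 falls of at least 1, and 177 rises and 11 falls of at least 2. In the fit of the 5 control libraries alone there were 346 rises and 129 falls of at least 1.

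The excess of large rises depended in size on the scaling. It was 81.0% higher genes among the changes of at least 1 with upper quartile scaling of the libraries, and 57.6% (430 against 317) under quantile normalization. It was 63.5% without replicate 2 of the 3-day control. In each of these settings more of the large changes were rises. For changes of any size the share of rises was 45.9% as deposited, 54.1% with upper quartile scaling and 41.9% with quantile normalization, so which direction held the majority of calls depended on the scaling.

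**Figure D2:**
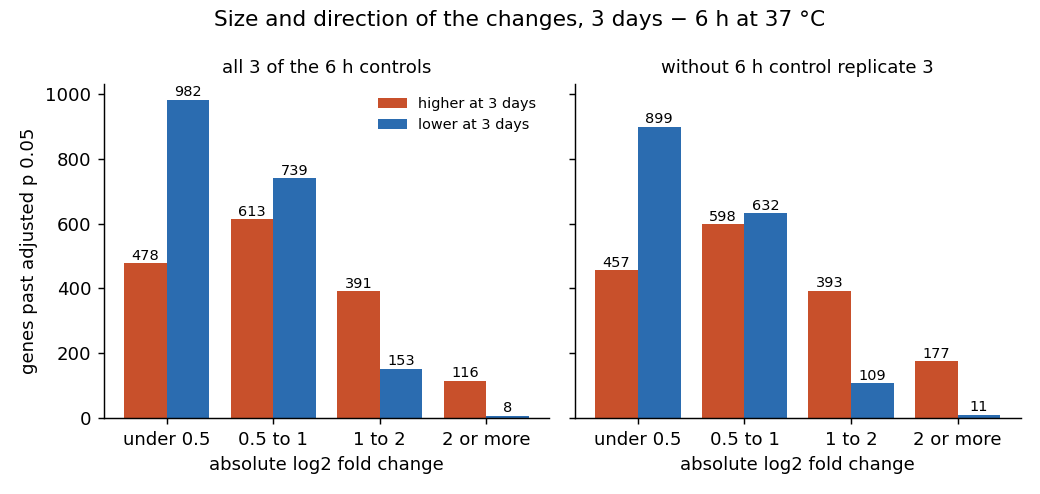
Number of genes past an adjusted p of 0.05 in limma, by absolute log2 fold change, higher (orange) or lower (blue) after 3 days, with all 6 h controls (left) and without replicate 3 (right). Falls outnumber rises below 1, while rises outnumber falls from 1 to 2 (391 against 153 on the left) and from 2 up (116 against 8).

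The balance of called rises and falls differed between levels of expression. Tested genes were split by their mean value over the 5 libraries. This mean holds the values being compared, from 3 libraries of the 6 h control and 2 of the 3-day control. Level and direction are therefore not independent, and the split is a description. Among the 2855 genes under 100, 427 (14.96%) were called, and 335 of these, 78.5%, rose. Of the 6020 genes from 100 to 1000, 1525 (25.3%) were called, with 730 rises and 795 falls. The 4024 genes from 1000 to 10000 had the highest share of calls, 1438 genes (35.7%), and here falls were the majority with 945 against 493 rises. Of the 330 genes at 10000 or more, 90 (27.3%) were called, 40 rising and 50 falling.

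The size of the called changes was larger in the low genes. The median absolute log2 fold change of called genes was 1.35 under a value of 100, 0.60 from 100 to 1000, 0.45 from 1000 to 10000 and 0.46 above. The median standard error went from 0.36 in the lowest band to 0.10 between 1000 and 10000, so a low gene needed a larger change to be called. Over all genes of a band, called or not, the median fold change was 0.17 under 100, -0.03 from 100 to 1000, -0.06 from 1000 to 10000 and 0.05 above. Of the 507 large rises, 259 came from genes under 100 and 185 from genes between 100 and 1000. Large falls were spread as 57 and 65 over the same bands. Without replicate 3 of the 6 h control, 319 of 393 called genes in the lowest band rose, and so did 478 of 1358 from 1000 to 10000 and 37 of 89 above. From 100 to 1000 the majority turned, with 791 of 1436 called genes rising.

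**Figure D3:**
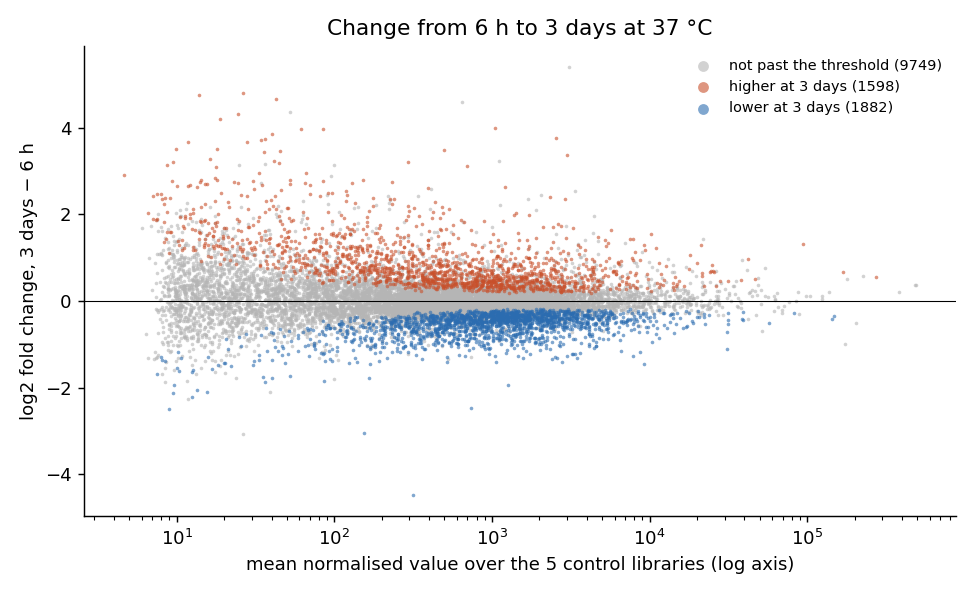
Log2 fold change from 6 h to 3 days at 37 °C against the mean normalised value over the 5 control libraries (log axis), each point a tested gene, with the 1598 higher (orange) and 1882 lower (blue) genes past an adjusted p of 0.05 in limma. Large rises reach across low and middle levels, while the falls lie mostly within 1 log2 unit and above a value of 100.

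Some genes went from near the floor to clear expression. The mean value was under 10 at 6 h and at least 50 at 3 days in 14 genes, and all 14 were called. The opposite, at least 50 at 6 h and under 10 at 3 days, occurred in 1 gene, which was not called. These genes were chosen by the values compared, with replicate 3 of the 6 h control included. The rises could also pass the filter through the 3-day libraries alone, so the counts and calls are a description. No gene was without a read in all 6 h libraries and at 10 or more in both 3-day libraries, so even these rises started from a few reads. Of the 116 rises of at least 2 log2 units, 55 had a mean under 10 at 6 h and 18 had a mean of at least 100. Among the falls of at least 2, 1 gene still had a mean of at least 100 at 3 days.

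As a share of each library's summed values, the genes that fell held more than the genes that rose at 6 h, and the shares were closer at 3 days. The 1598 genes that rose held 10.2%, 10.2% and 9.40% of the summed values in replicates 1 to 3 of the 6 h control. They held 15.4% and 14.9% in the 3-day control. The 1882 genes that fell held 19.2%, 19.3% and 20.5% at 6 h, and 13.3% and 14.2% at 3 days. The 9749 genes that were not called held between 70.1% and 71.3% in every library. These shares describe genes chosen by the same values and are no further test. The 507 large rises were a small part of the library, going from 0.855% to 1.08% at 6 h to 2.40% and 2.55% at 3 days. In replicate 3 of the 6 h control the genes that rose had their lowest share and the genes that fell their highest. Replicate 3 was in the fit that called these genes, so the shares do not place it independently of the calls.

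The position of replicate 3 varied from gene to gene when it took no part in the calls. Among the 3276 genes called without replicate 3, its own value lay beyond replicates 1 and 2 on the side away from the 3-day control in 1463 (44.7%). It lay between replicates 1 and 2 in 352 (10.7%), between them and the 3-day libraries in 1122 (34.2%), and at or past a 3-day library in 339 (10.3%). For genes that fell, the side away from 3 days was the more common, in 861 of 1651 (52.2%). For genes that rose it was 602 of 1625 (37.0%), and 649 (39.9%) lay between the times. These genes were called because replicates 1 and 2 lay apart from the 3-day libraries. Positions over all tested genes were not counted, so the shares are a description.

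In these 5 libraries the most abundant transcripts held a larger share after 3 days. The 10 genes with the highest values in each library held 10.7%, 10.8% and 11.6% of the summed values at 6 h (replicates 1 to 3), and 12.3% and 12.6% in the 3-day control. The groups did not overlap, and the difference of 1.39 percentage points had the smallest p the design allows (exact permutation test, two-sided, p = 0.1). The top 100 genes held 28.7% to 29.8% at 6 h, and 30.7% and 30.8% at 3 days. Of the 10 genes with the highest mean over the 5 libraries, 2 passed the threshold as higher and 1 as lower. Of the first 100, 11 were higher and 12 lower, beside 12.1% higher and 14.2% lower over all tested genes. The gene with the highest mean had values of 444729, 422284 and 444901 at 6 h, and of 616521 and 519171 at 3 days. Its 3-day values were both above the 6 h values, but at a log2 fold change of 0.37 (SE 0.21) the limma adjusted p was 0.205 and no change was called.

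Among the genes that met a rule, the 4 given by identifier had the most extreme changes in the fit with replicate 3 of the 6 h control. The rule asked for a call with and without that replicate. It also asked for no overlap between the groups and a mean of at least 50 in the higher group. Without replicate 3, the log2 fold changes of called genes ranged from -3.48 to 8.15, so the ranking depends on that library. The rule was met by 1185 rising and 1420 falling genes. What the 4 genes encode is not given in the files.

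ENSBTAG00000006894 was nearly silent at 6 h and clearly expressed at 3 days. Its normalised values were 1.204, 1.64 and 1.15 in replicates 1 to 3 of the 6 h control, from 2, 2 and 1 reads. They were 65.9 and 61.6 in the 3-day control, from 76 and 48 reads. All 6 h values were low and alike, and both 3-day values were far above them. On the log2 scale it rose by 4.80 (SE 0.45, limma adjusted p 0.000109), and 4.75 (SE 0.50, limma adjusted p 0.000303) without replicate 3. From the summed reads, 124 against 5, the ratio of 3 days to 6 h was 48.2, with an exact 95% interval of 20.1 to 151 that covers counting error only. In the heated cells this gene had 0 to 1 reads in each library at both times, while the recovery libraries had values of 36.1 and 44.6.

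ENSBTAG00000024492 showed the same order of values with more scatter at 6 h. Replicates 1 to 3 of the 6 h control had values of 0.602, 2.45 and 10.3, from 1, 3 and 9 reads, and the 3-day libraries had 102 and 97.5. Replicate 3 was the highest of the 6 h libraries and still well below both 3-day libraries. Its rise on the log2 scale was 4.67 (SE 0.77, limma adjusted p 0.00221), and 5.42 (SE 0.66, limma adjusted p 0.000580) without replicate 3. The ratio from the summed reads was 29.0, with an exact 95% interval of 16.6 to 55.5 for counting error. Values in heated cells were 1.26 to 4.56 at 6 h and 0 to 2.55 at 3 days, and the recovery libraries had 88.8 and 77.6.

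ENSBTAG00000020060 had the lowest fold change that met the rule. Its values were 153, 160 and 1248 at 6 h (replicates 1 to 3) and 11.3 and 15.4 in the 3-day control. Replicate 3 was far above replicates 1 and 2, and all 3 were above both 3-day libraries. The fitted log2 difference was -4.47 (SE 0.77, limma adjusted p 0.00283) with replicate 3, and -3.48 (SE 0.45, limma adjusted p 0.000800) without it. In heated cells the gene was high at both times, from 830 to 1496 at 6 h and from 634 to 1756 at 3 days. In the recovery libraries it was at 7.53 and 16.5, near the 3-day control.

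ENSBTAG00000018252 had the same pattern over the libraries. Its values were 86.7, 80.1 and 570 in the 6 h control, with replicate 3 again the highest, and 19.95 and 16.7 in the 3-day control. The groups did not overlap. On the log2 scale the difference was -3.05 (SE 0.65, limma adjusted p 0.00690), and -2.13 (SE 0.24, limma adjusted p 0.000441) without replicate 3. The call was lost when only the 5 control libraries were fitted (limma adjusted p 0.0661) and without replicate 1 of the 3-day control (limma adjusted p 0.0545). Heated cells had values of 255 to 292 at 6 h and 389 to 723 at 3 days, and the recovery libraries had 25.6 and 24.8.

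**Figure D4:**
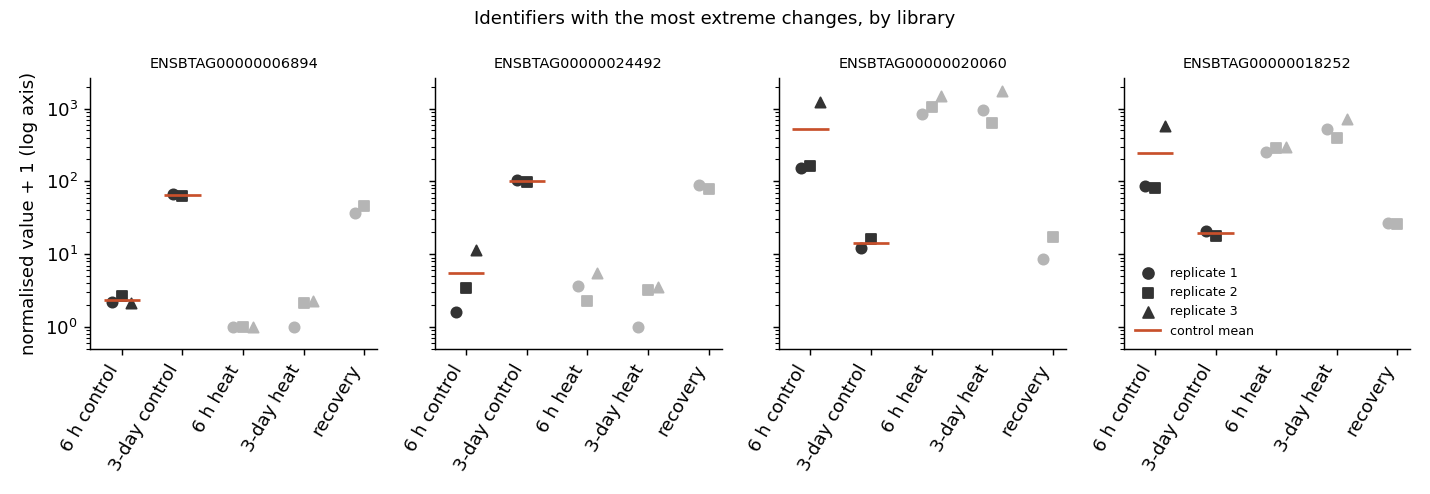
Normalised value + 1 (log axis) of the 4 identifiers in all 13 libraries, controls dark and the other groups grey, with symbols for the replicate number and a line at each control mean. The 3-day controls stand apart from the 6 h controls in each panel, and replicate 3 of the 6 h control is far above replicates 1 and 2 in the 2 genes that fell.

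To see how far the change over time was shared by heated cells, the same interval was compared at 40.5 °C. That comparison shares no library with the one at 37 °C, although both use the same estimate of each gene's spread, which favours the same genes in both. Between the heated groups 5920 genes (44.8%) met the same threshold in limma, 2908 higher and 3012 lower. Across the tested genes the fold changes at the 2 temperatures had a Pearson's r of 0.46 and a Spearman's rho of 0.48. With replicate 3 left out of every group, Pearson's r was 0.50. Genes are not independent replicates, and no p is given. In 2203 genes a change was called at each temperature. For 2036 of them the direction was the same, 874 rising and 1162 falling. These 2036 were 58.5% of the genes called at 37 °C and 34.4% of those called at 40.5 °C. In 167 genes the directions were opposite.

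The difference between the time effects was tested as an interaction, which passed for 1919 genes (14.5%). It passed for 734 of the 3480 genes called at 37 °C (21.1%). Replicate 3 was part of the 6 h control and both heat groups, but not of the 3-day control. A shift common to libraries numbered 3 would cancel at 40.5 °C but enter the change at 37 °C and the interaction. The main test did not pair libraries by number. With the replicate number as a block, the interaction passed for 3909 genes, and with a term for replicate 3 for 3887. It passed for 4504 with replicates 1 and 2 of every group, and for 2387 without replicate 3 of the 6 h control. Without replicate 1 of the 3-day control it passed for 778, and without replicate 1 of the 6 h heat group for 1236. Among the genes that rose at 37 °C, the change at 40.5 °C was more negative in 290 and more positive in 105 of those with an interaction. Among the genes that fell at 37 °C, it was more positive in 252 and more negative in 87. These genes were chosen by their change at 37 °C, so the counts by direction are a description.

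The large rises and the large falls at 37 °C had different medians at 40.5 °C. The 507 genes that rose by at least 1 had a median log2 fold change of 1.45 at 37 °C and 0.83 at 40.5 °C, and the interaction passed for 126 of them (24.9%). The 161 genes that fell by at least 1 had medians of -1.18 and -1.14, and the interaction passed for 22 (13.7%). Whether these shares differ was not tested. Both sets were chosen by the size of their change at 37 °C, which by itself favours a larger median there. The medians are thus a description. All 4 genes given by identifier passed the interaction test. They were chosen for their change at 37 °C, which is part of the interaction, so their passing is no further support.

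**Figure D5:**
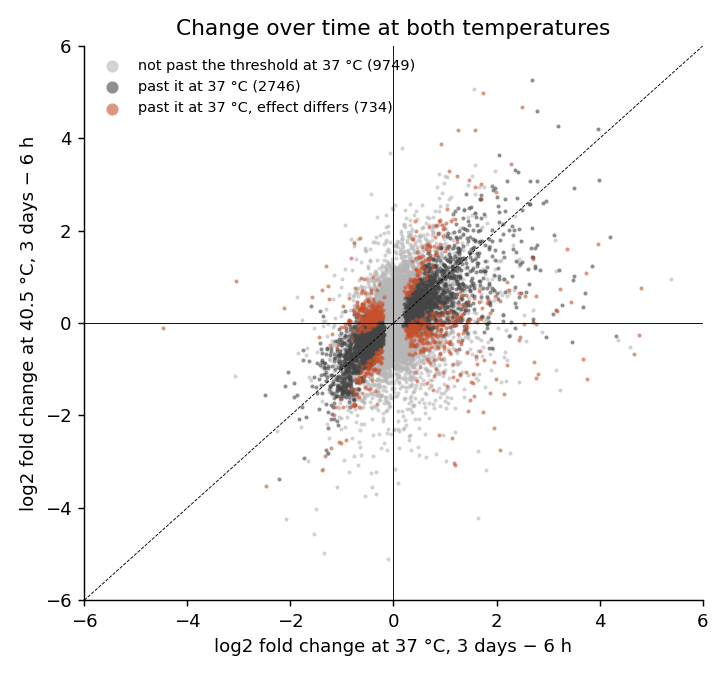
Log2 fold change from 6 h to 3 days at 40.5 °C against that at 37 °C, each point a tested gene. Dark points passed the threshold at 37 °C and orange points (734 genes) also passed the interaction test. Many orange points that rose at 37 °C lie below the dashed line of equal change.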

How the data were processed

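Polyadenylated RNA was sequenced in 13 libraries. The authors deposited 1 table of normalised signal per gene, read counts divided by a size factor, made with DESeq per the file name. Cutadapt, STAR, HTSeq, DESeq and the bovine build ARS-UCD1.2 are named, with no settings, per the submitters' processing notes. Whole reads were recovered by dividing by each library's smallest step, and 100% of values came out whole within 0.01 reads. Tested genes held 99.96% of the summed values of the 5 control libraries.

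Values were analysed as log2(value + 1) with limma 3.58.1 in R 4.3.3, a mean for each of 5 groups, moderation with a mean-variance trend, two-sided tests and Benjamini-Hochberg adjustment over the tested genes. A pseudocount of 1 understates the change of low genes. The procedure was also run on simulated reads, drawn with no shift of replicate 3 and no change under heat. Its error rate with such a shift was not tested. Groups and replicate numbers came from the titles. Pairs of control replicates differed by more than sampling noise (dispersion ratios 2.63 to 13.3), so none was taken for a library deposited more than once, which does not show that they are independent samples. Heat libraries with the same number deviated together (r 0.373, 0.306 and 0.526), which met the criterion of r above 0.1 for pairing the heat groups by number. Replicates 1 and 2 crossed were about as alike (r 0.347 and 0.296), and replicate 3 against them had r from -0.469 to -0.392, so it was mainly replicate 3 that the numbers set apart.

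Alternatives were other pseudocounts, filters, scalings, variance models, thresholds, libraries in the fit, the replicate block, single libraries left out, and edgeR 4.0.16 and DESeq2 1.42.0 on recovered reads. A term for replicate 3, the 4-library fit and equal depth were chosen after seeing the data. The comparison, the groups of genes and the rules were chosen with earlier results of these data known. The rule for named genes asked for symbols; lists of named genes and markers were not used because no symbols were paired with the identifiers. Only the 2 most extreme rises and falls among the genes that met the rest of the rule were named.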

Additional observations from a re-analysis of the deposited data

Results flagged for a closer look

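The change from 6 h to 3 days differed between 40.5 °C and 37 °C, by the interaction test in limma, in 1919 genes. Among them were the 4 genes given by identifier. The difference of log2 fold changes, 40.5 °C minus 37 °C, was -4.05 (SE 0.60, limma adjusted p 0.00226) for ENSBTAG00000006894, which changed by 0.75 at 40.5 °C (limma adjusted p 0.145). It was -5.34 (SE 1.03, limma adjusted p 0.00784) for ENSBTAG00000024492, which changed by -0.67 at 40.5 °C (limma adjusted p 0.453). For ENSBTAG00000020060 the difference was 4.37 (SE 1.04, limma adjusted p 0.0188), with a change of -0.10 at 40.5 °C (limma adjusted p 0.922). For ENSBTAG00000018252 it was 3.96 (SE 0.87, limma adjusted p 0.0132), with a change of 0.91 at 40.5 °C (limma adjusted p 0.222). None of the 4 passed the threshold for time at 40.5 °C. They were chosen for their change at 37 °C, which is part of the interaction. The sizes and the adjusted p of these differences are therefore a description.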

How the results depend on the processing

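For time at 37 °C, 19 of 24 alternatives gave a count of called genes within 1.5 times 3480. Among them were 3526 genes with edgeR's quasi-likelihood test, 3871 with DESeq2, 3114 at equal depth, 4916 with array quality weights and 4990 with a term for replicate 3. The count moved to 1674 when only the libraries compared were fitted, 5930 with replicates 1 and 2 of every group, 1442 at an adjusted p of 0.01, and 668 with an added fold threshold of 1. Single libraries left out gave 916 to 3276 genes, the lowest without replicate 1 of the 3-day control. With the replicate block it was 5018. Same-numbered 6 h and 3-day controls had correlations of deviations of -0.058 and 0.146. Crossed pairs of replicates 1 and 2 had 0.058 and -0.146, because deviations within a group of 2 libraries are mirror images. The correlations therefore cannot show whether same-numbered controls share more than a number.

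For time at 40.5 °C, where the main count was 5920, an adjusted p of 0.01 gave 3891 genes and the fold threshold 1397. With the replicate block it was 7568, and single libraries left out gave 4768 to 5558. For the interaction the count moved from 1919 to 4235 with array quality weights, 4504 with replicates 1 and 2 only, 3909 with the replicate block, 3887 with a term for replicate 3, 579 at an adjusted p of 0.01 and 569 with the fold threshold. Single libraries left out gave 778 to 2387. The lower counts at stricter thresholds follow from their construction; the cause of the other moves was not tested. The 4 identifiers kept their direction in all 22 alternatives run for each, and 3 of them kept their call. Precision was lowest for genes with few reads: under a value of 100 the median standard error was 0.36, the largest of the level bands.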

Other observations

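The recovery libraries, harvested 66 h after the end of 6 h of heat, were compared with the controls by the same distance. Their median absolute difference from the 3-day control libraries was 0.154 to 0.191 on the log2(value + 1) scale, beside 0.156 between the 3-day control libraries themselves and 0.102 between the recovery libraries. From replicates 1 and 2 of the 6 h control the recovery libraries differed by 0.313 to 0.324, and from replicate 3 by 0.396 and 0.398. The corresponding distances of the 3-day control libraries were 0.246 to 0.313 and 0.340 to 0.377. Replicate 1 of the 3-day control was the nearer of the 3-day libraries to the first recovery library, at 0.154 against 0.191 for replicate 2, and the numbers of genes that differed by at least 1 were 203 and 448. These distances are descriptions with no test.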
